A study of Drosophila melanogaster with 18 samples.

Results

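ppk13, CG33509 and CG9259 are 3 adjacent genes on chromosome arm 2L of Drosophila melanogaster. They were chosen by name, for being near silent in control wing discs and high in wts mutant discs, and are 3 of the 17373 genes in the count table. Their difference between mutant and control discs is therefore a description and carries no test here. The levels matched that description for ppk13 and CG33509. They did not for CG9259, which was near silent in controls but reached at most 1.12 CPM (counts scaled to library size) in a mutant replicate.

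Total RNA was sequenced from hand-dissected wing imaginal discs of wandering late larvae. These discs are epithelial pouches of the larva from which the wing and part of the thorax develop. The wts day 9 and wts day 5 groups carried wts149 clones, and the control day 5 group carried FRT82B clones, for which the labels name no wts allele. In all 3 groups the clones were made with ubx-FLP in a Minute background, in which the cells outside the clones grow slowly. wts encodes Warts, a kinase of the Hippo pathway that keeps the growth-promoting coactivator Yorkie in check. Each group had 3 numbered replicates of 2 libraries, a and b, which were summed, so n = 3 per group. The labels do not say whether the numbers are separate collections, so p-values measure the spread between these samples, which may be technical. There was no control on day 9, so day and genotype cannot be told apart where wts day 9 discs are set against controls. The description field of the control libraries reads d5.d6 where their titles read d5. The sources used here do not give the lesion of wts149, the mutant share of each disc or the genotype of chromosome 2.

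Depth was 5611674 to 11193858 counts in the 18 libraries and 14201662 to 22263073 in the 9 summed replicates. wts itself averaged 269 ± 10.9 CPM in wts day 9 discs, 202 ± 14.6 CPM in wts day 5 discs and 100.5 ± 5.37 CPM in control discs (SD, n = 3 each), which cannot check the genotype without the lesion. All 12 wing disc markers were detected in every group, with a summed level of 2521 to 2687 CPM in wts day 9, 2424 to 2599 in wts day 5 and 2742 to 2859 in control replicates. In whole discs, fewer cells that express a gene and less RNA per cell cannot be told apart.

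ppk13 (pickpocket 13) encodes a subunit of the DEG/ENaC family of sodium channels, whose fly members are called pickpocket proteins and act in mechanosensation, pain sensing, taste, pheromone sensing and, for several of them, the liquid-clearing tracheal system. CG33509 and CG9259 belong to the EcKL family, predicted small-molecule kinases named after the ecdysteroid kinase of the silkworm, in which the enzyme inactivates moulting hormones by phosphorylation. The sources used here state no substrate for CG33509 or CG9259.

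On the Release 6 assembly, CG33509 (FBgn0053509) lies at 2L:21084605-21086506 on the minus strand, ppk13 (FBgn0053508) at 2L:21086790-21088751 on the minus strand and CG9259 (FBgn0032913) at 2L:21089375-21090999 on the plus strand. CG33509 and ppk13 thus point the same way, with 283 bases between them and ppk13 upstream. ppk13 and CG9259 point away from each other across 623 bases. No other annotated gene overlaps any of the 3 (0 for each). The union of their exons spans 1405 bases in CG33509, 1514 in ppk13 and 1566 in CG9259.

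ppk13 was read in every wts library and was at or near 0 in every control library. Its counts in wts day 9 libraries, in the order 1a, 1b, 2a, 2b, 3a and 3b, were 302, 283, 351, 416, 352 and 352. The wts day 5 libraries held 553, 516, 308, 492, 504 and 518 counts, and the control libraries 1, 1, 2, 0, 1 and 0. The lowest wts library thus had 283 counts and the highest control library 2.

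CG33509 followed the same order of groups at a lower level. Its counts were 112, 135, 171, 164, 150 and 162 in wts day 9 libraries, 229, 225, 154, 258, 238 and 243 in wts day 5 libraries, and 1, 0, 5, 1, 1 and 0 in control libraries. Of its 8 control counts, 6 came from replicate 2. CG9259 was low everywhere, with 8, 13, 10, 6, 7 and 10 counts in wts day 9 libraries and 4, 6, 4, 8, 3 and 5 in wts day 5 libraries. The control libraries held 0, 0, 0, 0, 1 and 0 counts of CG9259, a single read in replicate 3. All 3 genes passed the filter on low counts only through the wts groups.

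**Figure D1:**
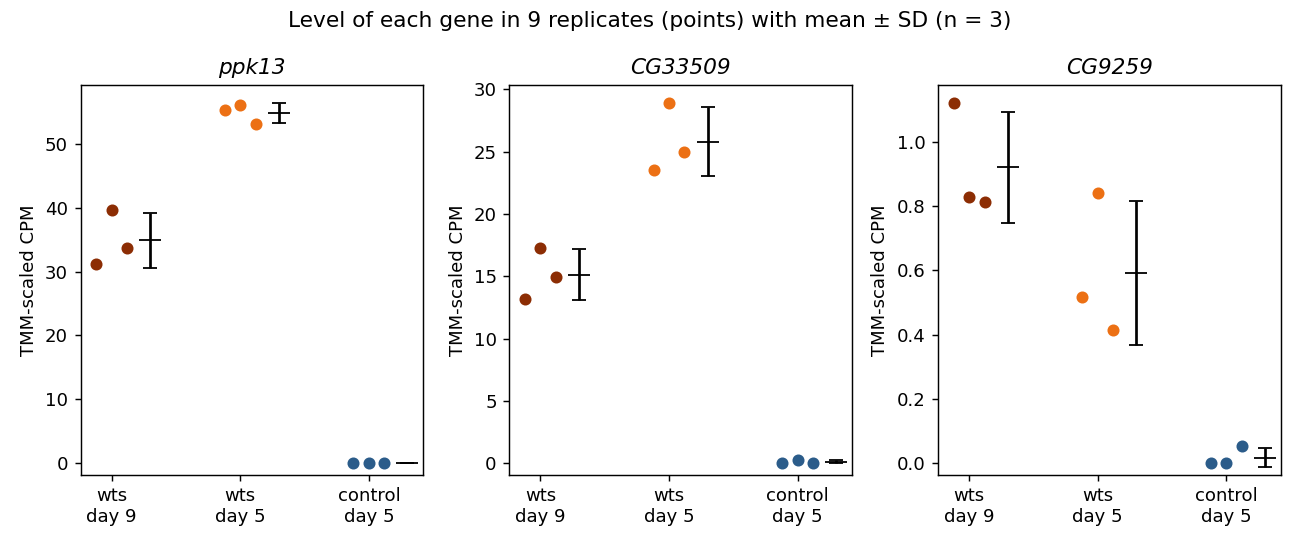
Levels of ppk13, CG33509 and CG9259 in TMM-scaled CPM (linear axes that differ between panels) in the 3 replicates of wts day 9, wts day 5 and control discs, with mean ± SD. ppk13 and CG33509 are highest in wts day 5 discs, CG9259 has its highest mean in wts day 9 discs, and the control points lie at or near 0.

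Scaled to library size with TMM factors, ppk13 measured 31.2, 39.7 and 33.7 CPM in wts day 9 replicates, 55.3, 56.1 and 53.1 CPM in wts day 5 replicates and 0.0936, 0.0888 and 0.0533 CPM in control replicates. CG33509 measured 13.2, 17.3 and 14.9 CPM in wts day 9 replicates, 23.5, 28.9 and 25.0 CPM in wts day 5 replicates, and 0.0468, 0.266 and 0.0533 CPM in control replicates. For both genes the 3 groups did not overlap. Over all tested genes, 22.1% had every wts day 9 replicate above every control replicate, 19.3% had every wts day 5 replicate above every control replicate, and 17.3% had every wts day 9 replicate below every wts day 5 replicate. The genes were chosen for their difference from control, so nothing is read from their own separation from it. CG9259 measured 1.12, 0.827 and 0.814 CPM in wts day 9 replicates, 0.518, 0.842 and 0.415 CPM in wts day 5 replicates and 0, 0 and 0.0533 CPM in control replicates. Its wts groups overlapped each other, and neither overlapped the controls.

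Per kilobase of exon, which allows levels to be compared between genes, ppk13 averaged 23.0 ± 2.88 CPM per kb in wts day 9 discs and 36.2 ± 1.06 in wts day 5 discs. CG33509 averaged 10.8 ± 1.49 and CG9259 0.588 ± 0.11 CPM per kb in wts day 9 discs, against 18.4 ± 1.99 for CG33509 and 0.378 ± 0.142 for CG9259 in wts day 5 discs (SD, n = 3 each). The order of levels was ppk13, CG33509, CG9259 in both wts groups, and neighbours in that order did not overlap. By mean CPM, ppk13 stood above 50.0% of the 8585 tested genes in wts day 9 discs and above 60.9% in wts day 5 discs. CG33509 stood above 33.3% in wts day 9 discs and above 42.9% in wts day 5 discs, and CG9259 above 9.55% in wts day 9 discs and 5.42% in wts day 5 discs. In control discs at most 0.151% of the tested genes had a lower mean than any of the 3. A gene near silent in controls was tested only if the wts groups carried it past the filter. This low place thus follows from the filter and the choice of the genes.

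The ratio of summed counts, corrected for library size, gives the size of the difference from controls. For ppk13 it was 437 in wts day 9 discs (2056 against 5 counts, exact 95% interval 187 to 1347) and 686 in wts day 5 discs (2891 against 5 counts, 293 to 2113). For CG33509 it was 119 in wts day 9 discs (894 against 8 counts, 60.0 to 276) and 199.7 in wts day 5 discs (1347 against 8 counts, 101 to 463). CG9259 had a ratio of 57.4 in wts day 9 discs (54 against 1 count, 9.87 to 2307) and 35.6 in wts day 5 discs (30 against 1 count, 5.91 to 1451). These intervals cover counting error only, and both ratios of a gene share the same control reads.

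The ranks below are in the contrasts for which the genes were chosen, so they are a description. Among all 8585 tested genes, the fitted log2 fold change of ppk13 ranked 1 from the top in both comparisons with control. It was 8.66 ± 0.18 (SE) for wts day 9 and 9.31 ± 0.18 for wts day 5. CG33509 ranked 3 with 6.83 ± 0.33 for wts day 9 and 2 with 7.59 ± 0.33 for wts day 5. CG9259 ranked 6 with 5.36 ± 0.75 for wts day 9 and 8 with 4.71 ± 0.79 for wts day 5. Fitted values of genes this close to 0 counts depend on the prior count. Without control replicate 2, the replicate with most of its control reads, CG33509 had 8.06 for wts day 9 and 8.83 for wts day 5. Without control replicate 3, which held its one control read, CG9259 had 7.17 for wts day 9 and 6.52 for wts day 5.

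The genes were chosen for being high in the wts discs of both days, but not for a difference between the days. That difference was tested over all genes with edgeR's quasi-likelihood test and Benjamini-Hochberg adjustment. In this comparison 8.34% of tested genes passed an adjusted p of 0.05, 5.44% higher on day 9 and 2.90% lower. ppk13 fell in wts day 9 discs relative to wts day 5 discs, with a log2 fold change of -0.65 ± 0.10 and an adjusted p of 0.00646, all 3 day 9 replicates lying below all 3 day 5 replicates. The ratio of its counts was 0.637 (0.602 to 0.674).

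CG33509 fell as well, with a log2 fold change of -0.77 ± 0.20 (edgeR adjusted p = 0.0438), again with no overlap between the replicates of wts day 9 and wts day 5. Its call was lost when any 1 of the 6 wts replicates was left out (adjusted p = 0.0866 to 0.159), while that of ppk13 was kept in each of 18 alternatives (1e-05 to 0.0374). CG9259 had a log2 fold change of 0.65 ± 0.48 (edgeR adjusted p = 0.412), on 54 counts in wts day 9 and 30 in wts day 5 discs, and the replicates overlapped. Its count ratio of 1.61 had an interval of 1.01 to 2.61, so counting error alone allows almost no change or more than 2-fold.

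Ratios within a replicate do not depend on library scaling. CG33509 had 42.2, 43.7 and 44.3% as many counts as ppk13 in wts day 9 replicates and 42.5, 51.5 and 47.1% in wts day 5 replicates. The means were 43.4 ± 1.07% in wts day 9 discs and 47.0 ± 4.52% in wts day 5 discs, a difference of -3.61 percentage points (2-sided exact permutation p = 0.3, where 0.1 is the smallest that 3 against 3 allows). The groups overlapped, and a p that misses the threshold does not show that the ratio was equal.

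CG9259 had 3.59, 2.09 and 2.41% as many counts as ppk13 in wts day 9 replicates and 0.935, 1.5 and 0.783% in wts day 5 replicates. The means were 2.7 ± 0.791% in wts day 9 discs and 1.07 ± 0.378% in wts day 5 discs, and the replicates did not overlap (difference 1.62 percentage points, exact permutation p = 0.1, the smallest possible). Relative to CG33509 the share was 6.24 ± 1.99% in wts day 9 discs and 2.26 ± 0.627% in wts day 5 discs (difference 3.98 percentage points, exact permutation p = 0.1). Both ratios rest on 8 to 21 counts of CG9259 per replicate, and with 3 replicates against 3 an exact test cannot reach the 0.05 threshold, adjusted over the 3 ratios or not.

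**Figure D2:**
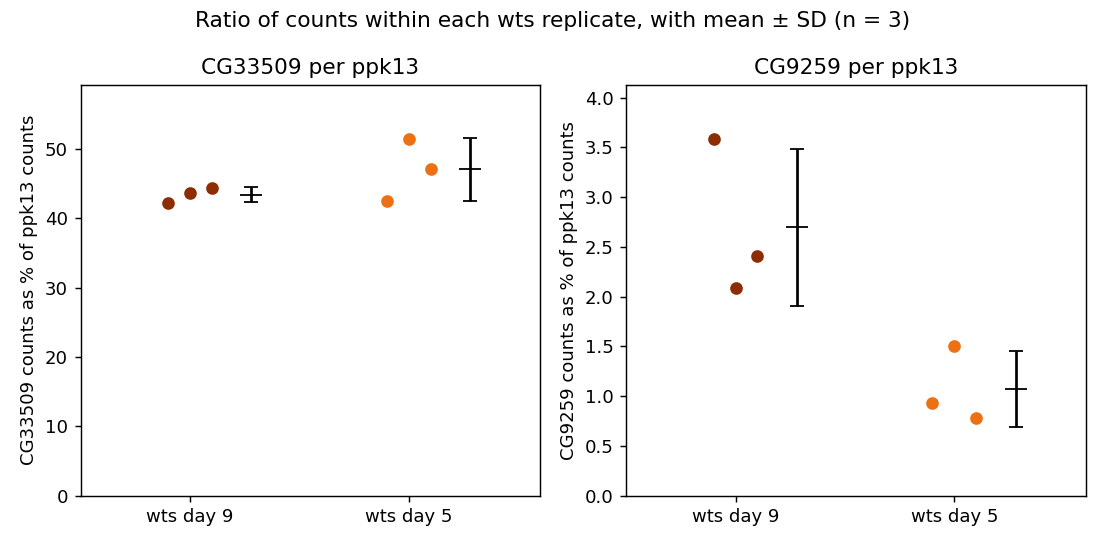
Counts of CG33509 (left) and CG9259 (right) as a percentage of the ppk13 counts of the same replicate, in wts day 9 and wts day 5 discs, with mean ± SD (n = 3). The CG33509 ratios overlap between the days, while those of CG9259 are 2.09 to 3.59% on day 9 and 0.783 to 1.5% on day 5.

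The tested genes on either side differed from controls by much less. Of the 24 nearest other genes, 12 on each side, 12 passed the filter on low counts. In wts day 9 discs 4 of these were called higher and 4 lower than in controls, where 29.6% of all tested genes were called (15.3% higher and 14.3% lower), and the median log2 fold change was -0.08 against -0.01 for all tested genes. In wts day 5 discs 2 were called higher and 1 lower, where 18.5% of all tested genes were called (9.64% higher and 8.88% lower), with a median of 0.00. Between wts day 9 and wts day 5, 1 was called higher and 0 lower, with 3 higher and 4 lower at an unadjusted p under 0.05 and 2 higher and 0 lower by DESeq2. With wts day 9 replicate 2 left out, 3 neighbours were called against control, and with replicate 3 left out 4. For wts day 5 the count was 1 without control replicate 1 or wts day 5 replicate 3. It was 5 when replicate 1 of wts day 9 was left out of the shared fit. Between the days it was 2 without control replicate 2 and 0 without wts day 9 replicate 2 or any 1 wts day 5 replicate.

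The immediate neighbours CG33510, CG33511 and CG14397 were themselves near silent and were too low to test. CG33510, an EcKL gene directly beyond CG33509, had 0, 5 and 4 counts in wts day 9 replicates, 6, 5 and 6 in wts day 5 replicates and 1, 0 and 0 in control replicates. Its count ratio to control was 9.56 in wts day 9 discs (exact 95% interval 1.32 to 419) and 20.2 in wts day 5 discs (3.16 to 843). CG33511, the next EcKL gene, had 5 counts in wts day 9, 4 in wts day 5 and 1 in control discs. On the other side, CG14397 had 6 counts in wts day 9, 2 in wts day 5 and 2 in control discs. The sources used here do not say whether reads were assigned by strand or how reads shared between related EcKL genes were counted.

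Farther out, CG42238 averaged 181 ± 22.9 CPM in wts day 9 discs, 118 ± 8.04 in wts day 5 discs and 78.2 ± 14.8 in control discs. It was higher than in controls by 1.21 ± 0.13 on day 9 and 0.60 ± 0.13 on day 5 (log2; edgeR adjusted p = 0.000265 and 0.0144) and higher on day 9 than on day 5 by 0.61 ± 0.13 (adjusted p = 0.0239). The day 5 call was lost in 2 alternatives and the call between days in 5. CG9265 was higher by 0.81 ± 0.16 on day 9 and 1.19 ± 0.16 on day 5 (edgeR adjusted p = 0.00526 and 0.00145). Nhe2, a sodium/proton exchanger, was higher by 1.24 ± 0.21 on day 9 (edgeR adjusted p = 0.00227). del (deadlock), which acts in the piRNA pathway of the germ line, was higher by 1.00 ± 0.26 on day 9 (edgeR adjusted p = 0.0178), a call lost when control replicate 1 or wts day 9 replicate 2 or 3 was left out.

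The neighbours called lower in wts day 9 discs were CG9270 with -1.93 ± 0.46, CG9253 with -0.46 ± 0.11, CG12050 with -0.28 ± 0.08 and E2f2, a repressive E2F factor, with -0.24 ± 0.08 (log2; edgeR adjusted p = 0.0118, 0.0135, 0.0233 and 0.0473). E2f2 was also lower on day 5 by a log2 fold change of -0.31 ± 0.08 (edgeR adjusted p = 0.0265). Leaving out a single replicate ended the call of CG9270 in 1 fit, of CG9253 in 2 and of CG12050 in 4, and that of E2f2 on day 9 was lost in 13 of 18 alternatives and on day 5 in 6.

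**Figure D3:**
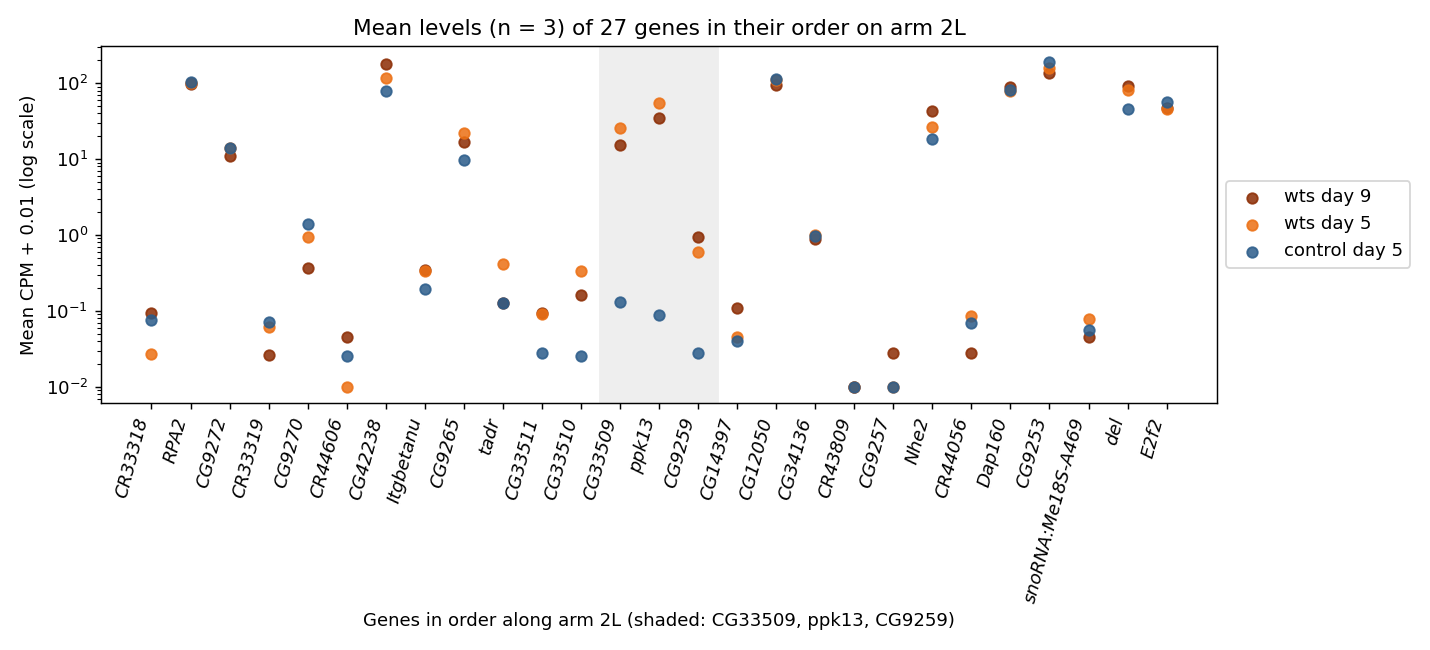
Mean TMM-scaled CPM plus 0.01 (log scale, n = 3) of the 3 genes (shaded) and the 12 nearest genes on each side, in their order on arm 2L, for wts day 9, wts day 5 and control discs. In the shaded band the wts points lie far above the control points, while most other genes have similar levels in the 3 groups or differ by much less.

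The other DEG/ENaC genes that passed the filter differed from controls by less than ppk13, and in both directions. Family members were taken by symbol (ppk with or without a number, rpk and Nach). Of the 30 others in the table, 6 had 0 counts in every library, 14 had 10 or fewer counts in all (those at 0 included), and 5 passed the filter. In wts day 9 discs 2 were called higher and 1 lower than in controls, and in wts day 5 discs 3 higher and 1 lower. Between the days 1 was called higher and 1 lower in wts day 9 than in wts day 5 discs. These calls were 60.0% of the 5 genes for wts day 9 against control, 80.0% for wts day 5 against control and 40.0% between the days, where 29.6%, 18.5% and 8.34% of all tested genes were called. The median log2 fold change of the 5 was 0.24 for wts day 9 against control, 1.02 for wts day 5 against control and 0.40 between the days.

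ppk (pickpocket), which serves in the pain-sensing dendritic arborization neurons of the larva, measured 9.86, 13.3 and 12.8 CPM in wts day 9 replicates, 5.64, 5.47 and 5.35 in wts day 5 replicates and 1.78, 1.51 and 1.92 in control replicates. It rose by 2.79 ± 0.18 on day 9 and 1.66 ± 0.18 on day 5 relative to control (log2; edgeR adjusted p = 1.14e-05 and 0.000417). It was also higher on day 9 than on day 5, by 1.13 ± 0.16 (edgeR adjusted p = 0.00618), the opposite direction to ppk13. rpk (ripped pocket) averaged 19.2 ± 3.24 CPM in wts day 9 discs, 14.6 ± 3.23 in wts day 5 discs and 7.67 ± 1.17 in control discs, and was higher than in controls by 1.32 ± 0.19 on day 9 and 0.92 ± 0.19 on day 5 (edgeR adjusted p = 0.00122 and 0.0108).

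ppk29, known for pheromone sensing, averaged 6.64 ± 1.03 CPM in wts day 9 discs, 14.9 ± 0.778 in wts day 5 discs and 7.33 ± 0.399 in control discs. It was higher in wts day 5 discs than in controls by 1.02 ± 0.13 (edgeR adjusted p = 0.00117) and lower on day 9 than on day 5, with a log2 fold change of -1.17 ± 0.14 (adjusted p = 0.00234). Between wts day 9 and control it had -0.14 ± 0.14 (adjusted p = 0.452). ppk22 fell to 0.256 CPM in wts day 9 and 0.173 CPM in wts day 5 discs, against 1.32 CPM in controls (log2 -2.35 ± 0.68 and -2.81 ± 0.72, edgeR adjusted p = 0.0264 and 0.0246), and each call was lost in 4 fits that left out a replicate.

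The EcKL genes were taken from a list written from general knowledge, with all 50 names found in the table, and no annotation used here gives the family. Of its 48 other genes, 5 had 0 counts in every library, 20 had 10 or fewer in all, and 13 passed the filter. In wts day 9 discs 2 were called higher and 1 lower than in controls, with a median log2 fold change of 0.09. In wts day 5 discs 0 were called higher by edgeR, with 4 higher at an unadjusted p under 0.05 and 2 higher by DESeq2, and 1 was called lower. Between the days 1 was called higher on day 9 and 0 lower, with 1 lower at an unadjusted p under 0.05 and 0 by DESeq2. These calls were 23.1% of the tested family genes for wts day 9 against control, 7.69% for wts day 5 against control and 7.69% between the days, against 29.6%, 18.5% and 8.34% of all tested genes. For wts day 5 against control the EcKL count was 0 without control replicate 2 or any 1 wts day 5 replicate. It was 3 when wts day 9 replicate 1 was left out.

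CG10559 was higher in wts day 9 discs than in controls by 1.06 ± 0.26 (log2; edgeR adjusted p = 0.014). CG14314 was higher by 0.60 ± 0.13 (adjusted p = 0.00831) and higher on day 9 than on day 5 by 0.70 ± 0.13 (adjusted p = 0.0164). Both CG14314 calls were lost with the a libraries alone, and the call between days also without wts day 5 replicate 3 or wts day 9 replicate 3. CG5126 was lower in wts day 9 discs with -0.26 ± 0.09 (adjusted p = 0.0479), a call lost in 14 of 18 alternatives, and CG5644 was lower in wts day 5 discs with -2.0 ± 0.53 (adjusted p = 0.0293), a call lost in 5 fits that left out a replicate. The most abundant EcKL gene in wts day 9 discs, CHKov1, known for natural variants that alter resistance to insecticide and virus, averaged 72.6 ± 6.05 CPM in wts day 9 discs, 60.6 ± 4.54 in wts day 5 discs and 66.5 ± 5.58 in control discs and passed no test.

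**Figure D4:**
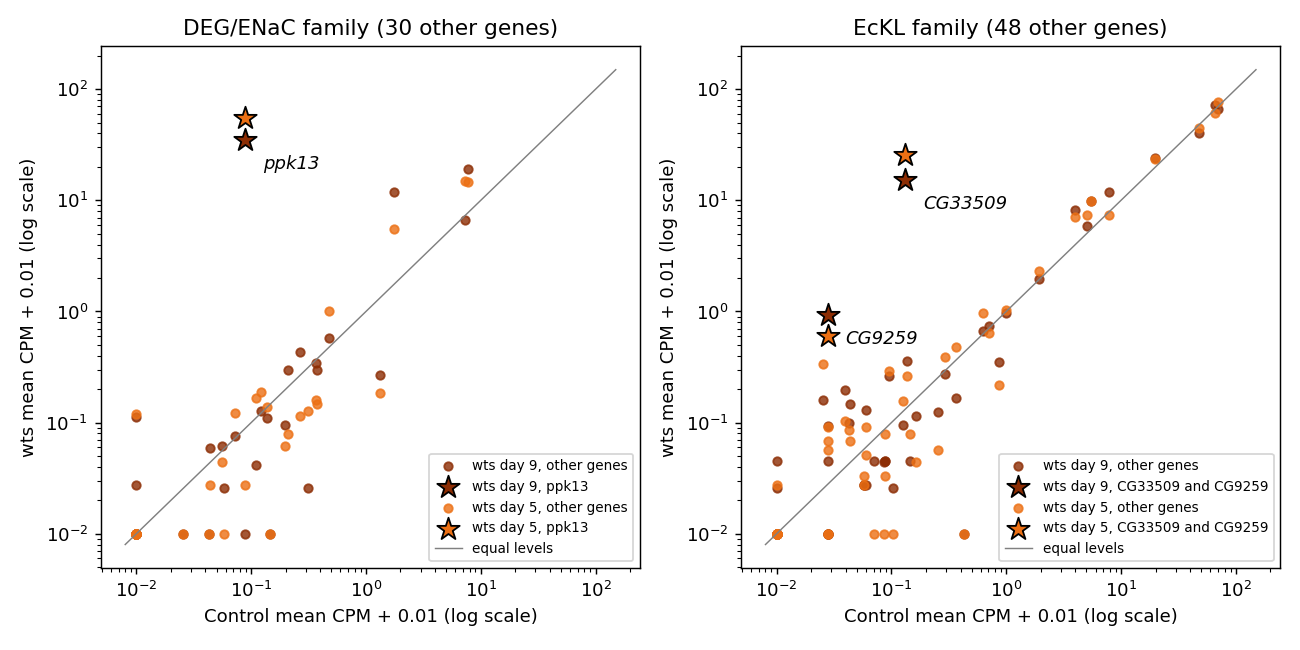
Mean CPM plus 0.01 in wts discs (day 9 and day 5) against control discs, on log axes, for 30 other DEG/ENaC genes with ppk13 starred (left) and 48 other EcKL genes with CG33509 and CG9259 starred (right). The line marks equal levels, and the starred genes lie farther above it than the other family members.

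Taking genes under 1 CPM in every control replicate, at least 2 CPM in every wts replicate and at least 8-fold above the highest control in every wts replicate gave 6 genes, as a description without a test. These were ppk13 and CG33509 on 2L, CG14957 and CG8539 on 3L, and Osi15, an Osiris family gene, and PK2-R2, a pyrokinin receptor, on 3R. CG9259 did not reach the 2 CPM minimum. The highest mean was that of ppk13, with CG33509 next. CG14957 averaged 6.69 ± 1.53 CPM in wts day 9 discs, 9.29 ± 0.781 in wts day 5 discs and 0.271 ± 0.266 in control discs. CG8539 averaged 8.89 ± 2.27 CPM in wts day 9 discs, 3.39 ± 0.421 in wts day 5 discs and 0.216 ± 0.127 in control discs, and was higher on day 9 than on day 5 by 1.39 ± 0.29 (log2; edgeR adjusted p = 0.0204, lost without any 1 of the 6 wts replicates). Osi15 averaged 7.99 ± 2.82 CPM in wts day 9 discs, 5.12 ± 0.257 in wts day 5 discs and 0.441 ± 0.106 in control discs. PK2-R2 averaged 8.91 ± 2.42 CPM in wts day 9 discs, 6.45 ± 0.486 in wts day 5 discs and 0.568 ± 0.124 in control discs.

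**Figure D5:**
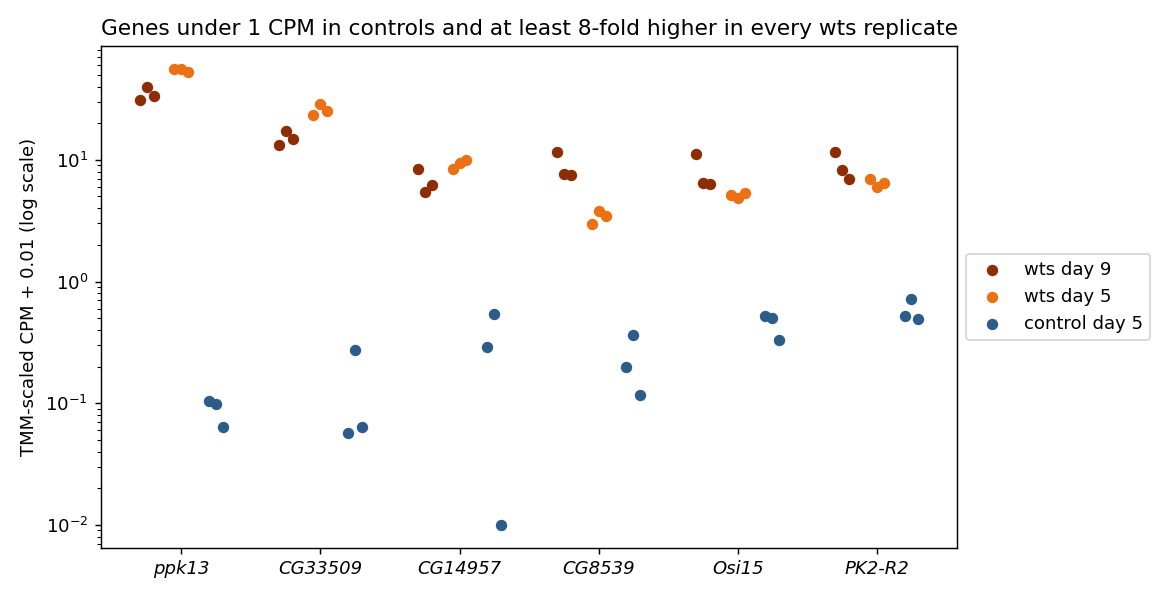
TMM-scaled CPM plus 0.01 (log scale) in each replicate of wts day 9, wts day 5 and control discs for the 6 genes under 1 CPM in controls and at least 8-fold higher in every wts replicate. ppk13 and CG33509 have the highest wts levels, and they and CG14957 have higher means on day 5 than on day 9.

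The likeness of patterns is a description, since it includes the difference between wts and control discs for which ppk13 and CG33509 were chosen together. It used log2 CPM with a prior count of 2, which narrows the differences of genes with few counts. By the mean absolute difference of centred log2 CPM over the 9 replicates, the gene most like ppk13 was CG33509 (0.59, against a median of 3.52 over all tested genes), followed by Ilp8 (0.80), a hormone by which damaged or overgrown discs delay pupariation, Lasp (1.23), CG14957 (1.41) and the noncoding RNA CR45923 (1.64). CG33509 was nearest to Ilp8 (0.50, median 2.93), then to ppk13 (0.59), CG14957 (0.83), CR45923 (1.05) and Lasp (1.10). Ilp8 averaged 62.7 ± 11.5 CPM in wts day 9 discs, 48.8 ± 3.34 in wts day 5 discs and 0.822 ± 0.903 in control discs. Its mean was thus higher on day 9 than on day 5, the opposite order to ppk13 and CG33509. CG9259 was nearest to other genes, CG13579 (0.24, median 1.25), Pde1c (0.26), CG9518 (0.27), PGRP-SA (0.34) and CG32686 (0.34). With at most 21 counts of CG9259 in a replicate, this order depends on the prior count. Pde1c averaged 16.1 CPM in wts day 9, 10.1 in wts day 5 and 1.96 in control discs, a smaller relative difference from controls than that of CG9259.

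Of 11 lists of markers of cell types that a dissected disc could carry, the tracheal list was the 1 whose summed level was higher in every replicate of both wts groups than in every control replicate, as ppk13 and CG33509 were. It ran from 5422 to 5927 CPM in wts day 9, 4404 to 5095 in wts day 5 and 3389 to 3814 in control replicates, with none of its 11 markers at 0. Against controls 5 of these were called higher and 2 lower on day 9, and 3 higher and 3 lower on day 5. These were 63.6% of the 11 on day 9 and 54.5% on day 5, where 29.6% and 18.5% of all tested genes were called. Its summed level was higher on day 9 than on day 5, the opposite order to ppk13 and CG33509. The sum was set mainly by abundant markers. uif, for example, averaged 1545 CPM in wts day 9, 1412 in wts day 5 and 853 in control discs. In the same order of groups btl averaged 9.66, 7.53 and 14.0 CPM. trh, the tracheal selector gene, averaged 104 ± 4.79 CPM in wts day 9 discs, 110.2 ± 9.6 in wts day 5 discs and 99.6 ± 6.94 in control discs and passed no test. The tracheal markers named here were chosen after their values were seen. Whether each of the 11 is particular to tracheal cells in wing discs was not tested, so the sum does not measure the amount of trachea. Gasp, serp and uif were called higher than in controls on both days, with log2 fold changes of 0.98 ± 0.16 for Gasp, 0.79 ± 0.10 for serp and 0.86 ± 0.10 for uif on day 9, and 0.87 ± 0.16 for Gasp, 0.62 ± 0.10 for serp and 0.73 ± 0.10 for uif on day 5. kkv, a chitin synthase, and verm, a chitin deacetylase, were called higher on day 9, by 0.58 ± 0.11 for kkv and 0.84 ± 0.15 for verm. btl, the tracheal FGF receptor, and bnl, its ligand, were called lower on both days, and dys on day 5 (-1.23 ± 0.19). btl fell, with a log2 fold change of -0.53 ± 0.13 on day 9 and -0.89 ± 0.14 on day 5 (edgeR adjusted p = 0.0156 and 0.00249).

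Muscle markers were the 1 list lower in every wts day 9 than in every wts day 5 replicate, as ppk13 and CG33509 were, with 135 to 183 CPM in wts day 9, 189.7 to 298 in wts day 5 and 324 to 1079 in control replicates. Both wts groups were thus lower than controls in this list, the opposite direction to ppk13 and CG33509. Haemocyte markers summed to 108 to 151 CPM in wts day 9, 61.3 to 71.2 in wts day 5 and 60.4 to 119.7 in control replicates. Salivary gland markers were at 0.287 to 1.97 CPM in wts day 9, 0.466 to 0.675 in wts day 5 and 3.65 to 6172 CPM in control replicates. The part of these cell types in the levels of ppk13, CG33509 and CG9259 was not tested.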

How the data were processed

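RNA was measured in 18 libraries of hand-dissected wing discs. Values are read counts per gene that the authors made with HTSeq, per the submitters' processing notes, and deposited without normalization. The sources used here do not name the HTSeq version, aligner, build or annotation, nor say whether strand was used. The a and b libraries of a numbered sample differed by little more than counting noise (chi-square over its degrees of freedom 0.994 to 1.06, against 11.1 to 58.9 between replicates), so they were summed and n = 3 per group.

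Of 17373 genes, 8585 passed edgeR's filterByExpr and all 3 groups were fitted together (edgeR 4.0.16 quasi-likelihood test, TMM scaling, Benjamini-Hochberg adjustment over all tested genes, threshold 0.05, R 4.3.3). SEs are the log2 fold change over the square root of F. The fit was tested on simulated data with known changes. It recovered 97 of 100 genes changed 2-fold and 100 of 100 changed 4-fold, with 8 false calls. The simulation gave every gene the same spread between replicates and changed few genes, so its error rates need not hold for the real counts. Nor does it cover genes near 0 counts in 1 group, such as these 3. Ratios of summed counts have exact conditional 95% intervals that cover counting error only. Contrasts used to choose the genes carry no test. The 3 genes and all lists were chosen with earlier results of these data known. Named genes were the 3 genes, wts, the neighbours and family genes that passed the test, the nearest 2 genes on each side, the genes of the silent-to-high pattern and the 5 most similar genes per member. Positions come from RefSeq Release 6, strands and exons from Ensembl release 115, matched by symbol or synonym for 17153 genes. Alternatives were RLE factors, library size alone, DESeq2 1.42.0, other filters, fits of 2 groups, a or b libraries alone, the replicate number as a block and leaving out each replicate. No column was left out.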

Additional observations from a re-analysis of the deposited data

Results flagged for a closer look

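The level of ppk13 in wts discs differed between the days, with a log2 fold change of -0.65 for wts day 9 over wts day 5 by the test of that difference (edgeR adjusted p = 0.00646, lower in 3 of 3 day 9 replicates). The same test gave -0.77 for CG33509 (edgeR adjusted p = 0.0438, lower in 3 of 3 day 9 replicates), a call lost when any 1 of the 6 wts replicates was left out. No control group was sampled on day 9, so this is a difference between wts discs of different days.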

How the results depend on the processing

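The signs of the 3 genes' differences from control were the same in all alternatives that gave a value. With the a libraries alone the log2 fold changes from control, day 9 then day 5, were 7.91 and 8.6 for ppk13 and 5.95 and 6.74 for CG33509, and with the b libraries alone 9.64 and 10.26 for ppk13 and 8.45 and 9.2 for CG33509, where the controls held fewer reads. Leaving out a replicate moved ppk13 over 8.48 to 8.78 on day 9 and 9.14 to 9.44 on day 5, CG33509 over 6.44 to 8.06 and 7.21 to 8.83, and CG9259 over 4.86 to 7.17 and 4.22 to 6.52. Between wts day 9 and wts day 5 it gave -0.75 to -0.58 for ppk13, -0.87 to -0.67 for CG33509 and 0.45 to 0.98 for CG9259. CG9259 gave no value where it failed the filter, which included the stricter filter.

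Calls between the days were 1223 by DESeq2 against 716. Leaving out a replicate gave 1548 to 2674 calls for wts day 9 and 739 to 1680 for wts day 5 against control, and 152 to 873 between the days. Neighbours called numbered 3 to 8, 1 to 5 and 0 to 2 in these fits, and between the days 2 by DESeq2, with every gene that had a count, with the stricter filter and with 2 groups fitted. EcKL genes called numbered 2 to 3, 0 to 3 and 0 to 1. On day 5 they were 3 by DESeq2, 2 with every gene that had a count and 0 with the stricter filter or with the a or b libraries alone. With the a libraries alone they were 1 on day 9 and 0 between the days. The pattern of 6 genes had 3 at a control limit of 0.5 CPM and 2 at 16-fold. The cause was not tested.

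Signs turned for values near 0 that passed no test. Leaving out a replicate gave a range of -0.14 to 0.00 for CG12050 and -0.15 to 0.01 for CG14314 on day 5 against control. Between the days the range was -0.01 to 0.50 for del, -0.00 to 0.36 for CG10559 and -0.08 to 0.83 for ppk22, which had -0.06 with the b libraries alone. The alternatives for single neighbour, family and pattern genes were chosen after seeing the data.

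Replicates with the same number did not deviate together (r = -0.167 to 0.244 over 9 pairs, 4 of 9 closest to their own number). With the replicate block, ppk13 had -0.66 between the days (edgeR adjusted p = 0.00977), CG33509 -0.77 (0.0386) and CG9259 0.67 (0.477), with 2260, 1293 and 528 calls in the 3 comparisons. The block moved none of 21 results on comparisons, the 3 genes and gene groups past their thresholds, 4 of 33 marker list counts and 3 of 60 results on other named genes (E2f2 on both days and CG5126 on day 9 lost their calls).

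The control level of the 3 genes rests on 5, 8 and 1 reads, so the size of each ratio is uncertain. Its interval covers counting error only, not the spread between replicates or the choice of libraries.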
